A study of Mus musculus with 8 samples.

Results

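The comparison of house dust mite extract with no extract was made in DC2.4, a mouse dendritic cell line of C57BL/6 origin. All cells were kept in medium with 0.1% serum for 4 h. Treated cells then received 250 PNU/ml of house dust mite (HDM) extract for 4 h, and untreated cells received none. The labels name no vehicle and no exposure time for the untreated cells, so it is not stated whether they were harvested at the same time as the treated ones. The series also holds timothy grass (Grass) and cat hair (Cat) extracts at the same dose and time, and each of the 4 groups has 2 libraries, called independent in the design text. Genes entered the comparison if at least 2 of the 8 libraries had a deposited value of 0.5 or more, which held for 11455 of 24054 rows. The gene just inside this limit was Arhgef17, with a second-highest value of 0.501, and the one just outside was C030016D13Rik, with 0.497. Values are read numbers scaled for sequencing depth, so they compare libraries for 1 gene and not genes with each other. All fold changes are differences of log2 of the value plus 0.1, with their SE from limma, and the p-values cover the spread between these libraries alone, which may be technical.

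House dust mite allergens include proteases, chitin, beta-glucans, lipid-binding proteins and bacterial products, and dendritic cells meet them through Toll-like receptors, C-type lectins and protease-sensitive receptors. In response, dendritic cells are known to alter their cytokine and lipid-mediator receptors, their adhesion to the matrix and their actin cytoskeleton, and to shift metabolism. DC2.4 is an immortalised line, so it is 1 cell source and not a set of animals.

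The line's identity was checked first. Of 18 dendritic and myeloid markers listed, 17 were in the table and 13 passed the limit, and their summed value was 1620 to 1628 in the untreated libraries and 1533 to 1578 with HDM. The class II gene H2-Ab1, a defining marker of antigen-presenting cells, was at 0 in all 8 libraries, while Itgax, which encodes CD11c, was at 2.57 and 2.60 untreated and 2.85 and 2.98 with HDM. Flt3, H2-Aa and Clec9a, also on the dendritic and myeloid list, did not reach the limit. Macrophage markers, mostly Cd68, summed to 640 in the untreated libraries and 577 to 585 with HDM. The markers therefore do not tell this line from macrophages. Summed markers of neutrophils, mast cells, NK cells, epithelium and fibroblasts did not exceed 0.0472 in any of these 4 libraries. T cell markers summed to 3.14 to 3.76, most of it Lck, and B cell markers to at most 0.115. The HDM libraries held 41.8 and 31.9 M reads, and the untreated ones 35.8 and 35.9 M.

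HDM moved many genes by a little and few by much. A gene is called here when limma's adjusted p was under 0.05 in the same direction under 4 scalings of the libraries, since small shifts depend on the scaling. By that rule 1056 genes were higher (9.22% of those tested) and 1156 lower (10.1%), which is 19.3% in either direction, with a median size of 0.24 on the log2 scale. With the deposited scaling alone the split was 1056 higher and 2513 lower (21.9%), or 31.2% in all, and with upper-quartile scaling 2169 higher and 1156 lower. At a change of at least 1.5-fold, 105 genes were higher (0.917%) and 105 lower (0.917%). Of these, 61 and 71 were still called after any 1 of the 8 libraries was left out, judged by the deposited scaling alone. Single genes said to lose a call without a library were also judged by that scaling alone. Of the 11455 tested genes, 2615 had both HDM values above both untreated ones and 4705 had both below. Lack of overlap was therefore common, and it was also a condition for genes named by rule. In bulk RNA, fewer cells that express a gene and less of its RNA per cell cannot be told apart.

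The receptor, surface, metabolic, signalling and transcription factor genes were grouped into 40 lists. The plot of list shares sets each list's called members against the shares of all tested genes. The list with the highest share of lower members held actin, serum response factor and YAP pathway genes, with 12 of 32 lower (37.5%). The highest share of higher members was in nuclear receptors and their coregulators, with 9 of 32 (28.1%), but that count fell to 1 with DESeq2. Counts of list members given for DESeq2 or without a library also use the 4 scalings. The balance within a list depends on the scaling: with the deposited scaling alone the higher count was the same in all 40 lists and the lower count larger in 37, and with upper-quartile scaling alone the lower count was the same in all 40 and the higher count larger in 38. More members were lower than higher in 18 lists under the 4 scalings, in 28 with the deposited one and in 8 with the upper quartile.

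**Figure D1:**
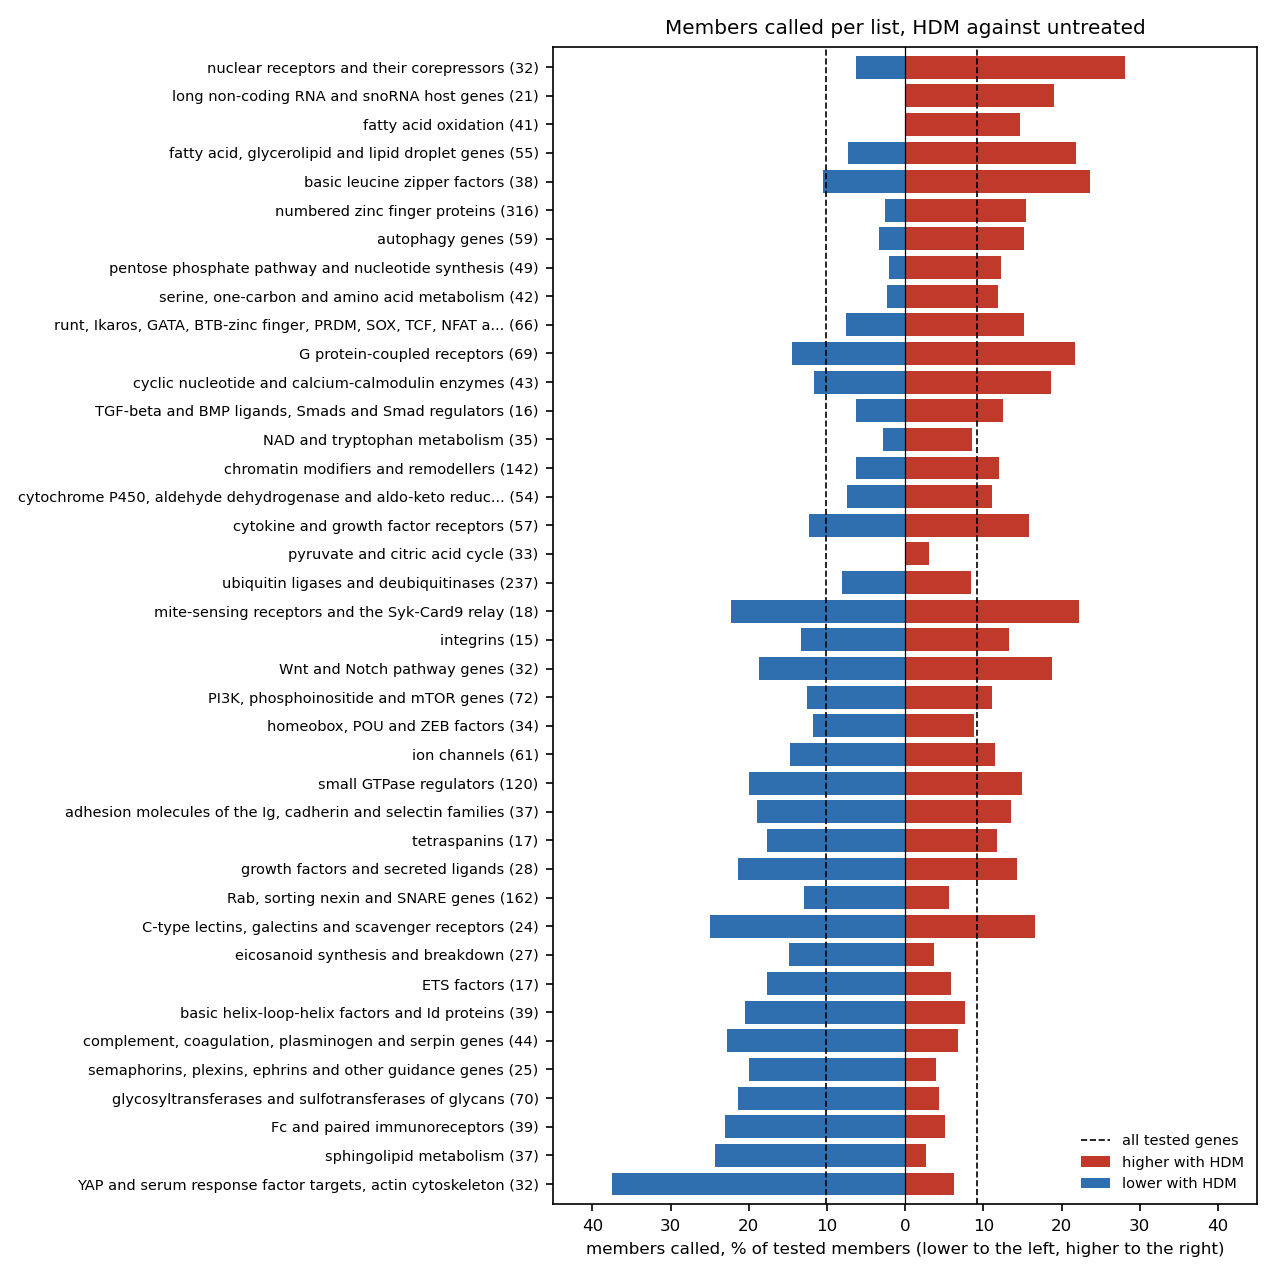
Share of the tested members of each of 40 gene lists called higher (right, red) or lower (left, blue) with HDM, in percent, with the number of tested members in brackets. Dashed lines mark the shares among all tested genes, 9.22% higher and 10.1% lower; the actin, serum response factor and YAP list reaches 37.5% lower.

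The largest increases outside the well-known responders included a lipid receptor, a pro-death BH3 protein, a ubiquitin ligase and a protease inhibitor. Lpar6, a receptor for lysophosphatidic acid, had values of 9.74 and 9.69 in the untreated libraries and 26.0 and 25.1 with HDM. Both HDM libraries lay far above both untreated ones (log2 fold change 1.38, SE 0.07, limma adjusted p = 3.9e-14). Bmf, a BH3-only protein that binds survival factors of the BCL2 family, was at 8.01 and 8.69 untreated and 20.1 and 21.2 with HDM. Bmf rose by 1.29 (SE 0.08). Dfna5, which encodes gasdermin E, a pore-forming protein, was at 8.53 and 9.45 untreated and 20.0 and 19.8 with HDM, a rise of 1.14 (SE 0.08). Neurl3, a ubiquitin ligase, was at 52.3 and 52.2 untreated and 111 and 108 with HDM. The library pairs of Neurl3 differed little within each group, and the rise was 1.06 (SE 0.04, limma adjusted p = 1e-16). Spint1, a membrane inhibitor of serine proteases, was at 12.6 and 12.8 untreated and 26.8 and 25.7 with HDM, a rise of 1.04 (SE 0.07). Arl4c, a small GTPase of the Arf family, rose by 0.94 (SE 0.04), from 27.0 and 26.8 to 52.3 and 51.5. Rhov, an atypical small GTPase, rose by 1.06 (SE 0.17), from values of 1.47 and 1.58 to 3.28 and 3.26. Mab21l3 rose by 1.02 (SE 0.09), and Tsku, a secreted leucine-rich repeat protein, by 1.01 (SE 0.08). The other genes among the 15 largest increases were 4833417C18Rik, Pet117, Fam131a, Ugt1a6b, Il12rb1 and Atp6v0c-ps2. Atp6v0c-ps2 shares sequence with its parent gene and was at 0.836 and 0.759 untreated and 1.06 and 2.80 with HDM, so its value is uncertain. Its call was lost without HDM 2 and without untreated library 2.

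Among the 15 largest decreases outside genes already described from these data were growth factor, protease and cyclic nucleotide genes. The gene Egr1, already described, fell by 1.33 on the log2 scale (SE 0.05). Plau, the urokinase plasminogen activator, was at 1083 and 1195 in the untreated libraries and 572 and 592 with HDM. The HDM libraries lay well below both untreated ones (log2 fold change -0.97, SE 0.04, limma adjusted p = 1.7e-12). Efr3b, a membrane protein that anchors a phosphoinositide kinase complex, was at 121 and 129 untreated and 57.3 and 60.6 with HDM, and changed by -1.08 (SE 0.04). Plk2, a polo-like kinase induced by growth stimuli, was at 259 and 293 untreated and 128 and 133 with HDM. Plk2 changed by -1.08 (SE 0.05). Hbegf, a ligand of the EGF receptor, was at 9.89 and 11.8 untreated and 4.55 and 5.23 with HDM, a change of -1.13 (SE 0.11). Pde7b, which hydrolyses cyclic AMP, was at 13.5 and 16.2 untreated and 6.42 and 6.98 with HDM, a change of -1.13 (SE 0.09). Rnase6, a secreted ribonuclease of myeloid cells, was at 3.20 and 2.98 untreated and 1.23 and 0.861 with HDM, a change of -1.5 (SE 0.19). Lack of overlap between HDM and untreated values was a condition for naming these genes. Arhgap32, a GTPase-activating protein, changed by -0.95 (SE 0.07), the interferon-induced GTPase Mx2 by -0.93 (SE 0.16) and the neutrophil elastase inhibitor Serpinb1a by -0.91 (SE 0.17). Of these 15, the largest fitted decrease was Amd2, at 172 and 166 untreated and 61.1 and 33.7 with HDM. However, Amd2 is a near copy of Amd1. The sum of Amd1 and Amd2 moved far less, from 198 and 209 to 164 and 170.3, so the reading of Amd2 alone is uncertain, and its call was lost without untreated library 1 or 2. The other members of this group were the replication-dependent histone genes Hist1h1e, Hist1h3d, Hist1h1b, Hist1h2bg and Hist1h2ap, which have near-identical copies. The calls of Hist1h2bg and Hist1h2ap were lost when single libraries were left out.

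Cytokine receptor genes moved both ways. Of 57 tested cytokine and growth factor receptors, 9 were higher (15.8%, against 9.22% of all genes) and 7 lower (12.3%, against 10.1%). DESeq2 called 3 of them lower, and with the deposited scaling alone 12 were lower. Il12rb1, a subunit of the IL-12 and IL-23 receptors, was at 3.06 and 3.09 untreated and 5.97 and 6.06 with HDM, a rise of 0.95 (SE 0.15, limma adjusted p = 2.1e-05). Il10ra, the ligand-binding chain of the receptor for the restraining cytokine IL-10, was at 7.64 and 7.09 untreated and 12.5 and 11.1 with HDM, a rise of 0.68 (SE 0.09). The groups overlapped in neither gene, which was a condition for naming Il12rb1. Il4ra, shared by the IL-4 and IL-13 receptors, rose by 0.76 (SE 0.08), from 8.88 and 9.02 to 15.1 and 15.3. Csf2rb, the common beta chain of the GM-CSF, IL-3 and IL-5 receptors, and its near copy Csf2rb2 could share reads, so their sum is given: 93.3 and 102 untreated, 238 and 234 with HDM. That sum was 2.42-fold higher with HDM. Among the lower members, Tnfrsf12a, the receptor for TWEAK, was at 23.1 and 22.8 untreated and 15.3 and 16.4 with HDM, a change of -0.53 (SE 0.06). Ifngr1, the ligand-binding chain of the interferon-gamma receptor, changed by -0.28 (SE 0.04), from 49.1 and 47.5 to 39.6 and 40.0. The smaller rises were in Il7r, Tnfrsf1b, Ifnar1 and Il6ra, by 0.14 to 0.26, and the other falls were in Tnfrsf9, Bmpr1a, Il1rl1, Tgfbr2 and Tnfrsf1a.

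G protein-coupled receptors changed in both directions. Of 69 tested, 15 were higher (21.7%, against 9.22%) and 10 lower (14.5%, against 10.1%). The count of higher members was 9 without HDM 1. The 2 receptors for prostaglandin E2 that raise cyclic AMP moved in opposite directions. Ptger4 was at 12.1 and 11.7 untreated and 7.17 and 6.37 with HDM, a change of -0.80 (SE 0.09, limma adjusted p = 1.2e-07). Ptger2 was at 2.51 and 1.84 untreated and 4.20 and 3.45 with HDM, a rise of 0.80 (SE 0.16, limma adjusted p = 0.0004). In both genes the groups were apart. Calcrl, a receptor for adrenomedullin and CGRP that signals through the same second messenger, was at 81.9 and 81.5 untreated and 55.2 and 58.8 with HDM, a change of -0.52 (SE 0.04). Adm, the adrenomedullin ligand itself, was also lower, at 15 and 15.8 untreated and 9.13 and 7.97 with HDM (log2 fold change -0.84, SE 0.09).

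The higher receptors also included P2ry6, Gpr132, S1pr1, Gpr141 and Gpr162. P2ry6, a receptor for UDP, rose by 0.73 (SE 0.17) and lost its call without HDM 1. Gpr132, a receptor linked to lysophospholipids, rose by 0.63 (SE 0.16), from 1.82 and 1.98 to 3.14 and 2.86. S1pr1, a sphingosine-1-phosphate receptor, rose by 1.29 (SE 0.11), from 4.21 and 3.65 to 9.74 and 9.72. The other falls included C3ar1, the receptor for the complement peptide C3a, at 255 and 267 untreated and 197 and 195 with HDM (log2 fold change -0.41, SE 0.03). Fzd7, a Wnt receptor, was at 158 and 146 untreated and 93.6 and 96.8 with HDM, a change of -0.67 (SE 0.04). Gpr183, which binds oxysterols and guides dendritic cell positioning, changed by -0.40 (SE 0.04).

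**Figure D2:**
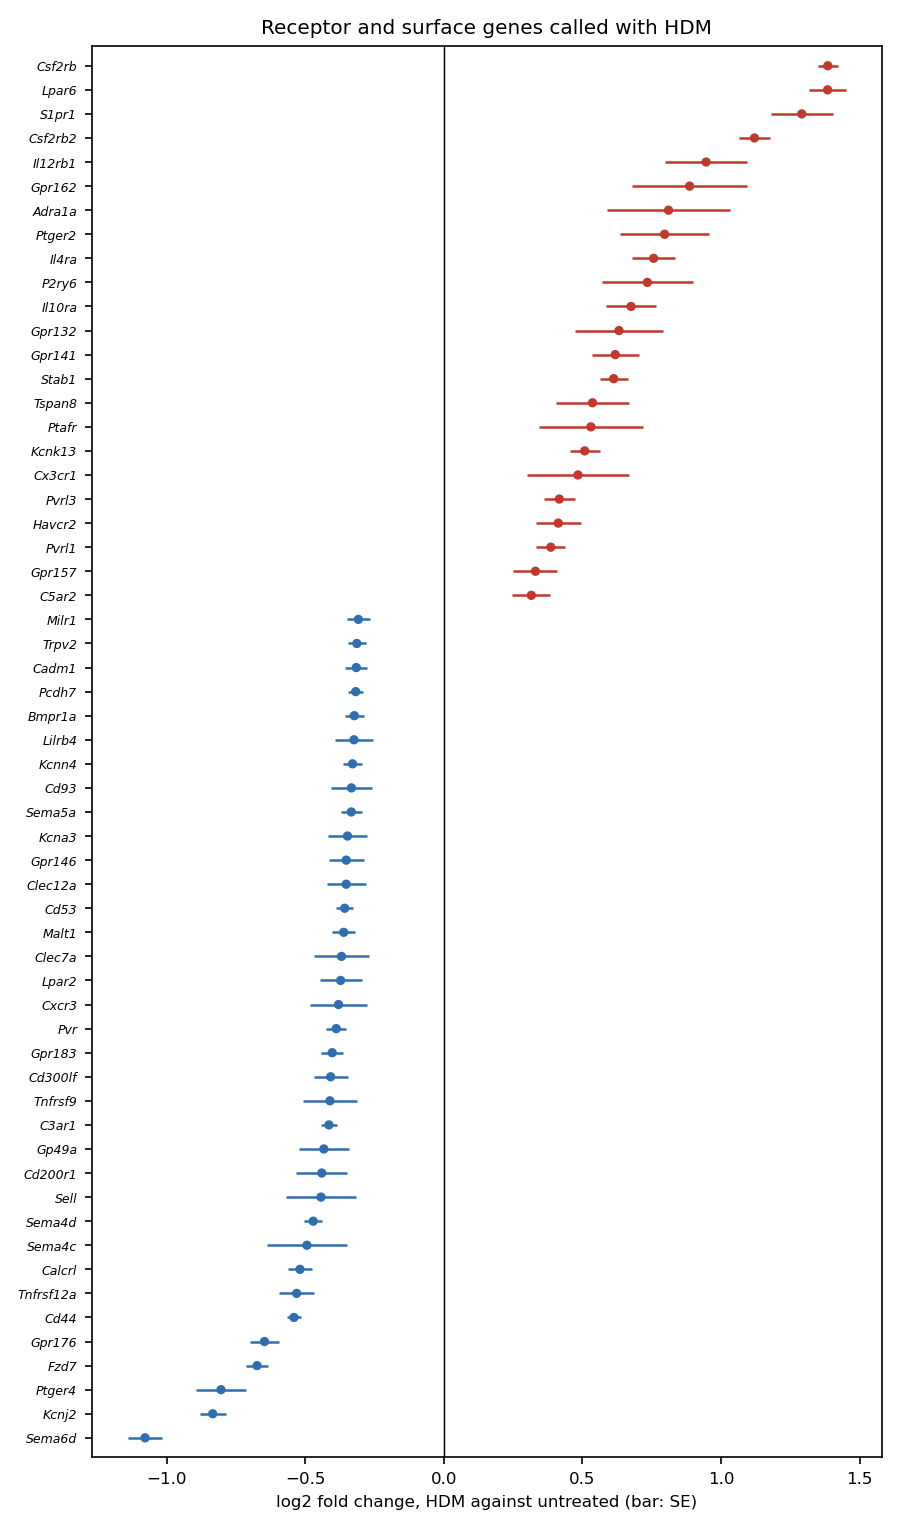
Log2 fold change of HDM against untreated for 58 called genes of the receptor and surface lists that average 1 or more and changed by at least 0.3 in size, with bars of 1 SE. The 23 higher genes (red) are led by Csf2rb and Lpar6, and the 35 lower genes (blue) by Sema6d, Kcnj2 and Ptger4.

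Genes through which dendritic cells sense mite material were split. Of 18 tested, 4 rose (Tlr2, Tlr4, Card9 and Prkcd) and 4 fell (Clec7a, Malt1, Fcer1g and Ppp3cb), 22.2% each against 9.22% and 10.1% of all genes. With upper-quartile scaling alone 10 were higher. Tlr2, which senses bacterial lipopeptides, was at 60.8 and 58.6 untreated and 74.6 and 72.3 with HDM, a rise of 0.30 (SE 0.04). Clec7a, the beta-glucan receptor Dectin-1, was at 7.70 and 7.35 untreated and 5.85 and 5.75 with HDM, a change of -0.37 (SE 0.10). Malt1, the paracaspase that acts with Card9 downstream of such lectins, was at 55.4 and 55.1 untreated and 43.5 and 42.4 with HDM, a change of -0.36 (SE 0.04). The groups were apart in each of these genes, which was a condition for naming Tlr2 and Malt1. Card9 itself rose by 0.23 (SE 0.05), and Fcer1g, the signalling chain shared by Fc receptors and Dectin-2, changed by -0.27 (SE 0.03). The fold changes in this list did not exceed 0.37 in size among the called members. The count of lower members was 2 without HDM 1, 2 without HDM 2 and 2 with DESeq2.

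Fc and paired immunoreceptors were mostly lower where they were called: 2 of 39 were higher (5.13%) and 9 lower (23.1%). The shares over all tested genes were 9.22% and 10.1%. The lower members included inhibitory and activating receptors. Cd200r1, an inhibitory receptor of myeloid cells, was at 12.9 and 15.4 untreated and 10.1 and 10.6 with HDM, a change of -0.44 (SE 0.09). Cd300lf, a lipid-binding receptor, was at 23.8 and 26.2 untreated and 18.8 and 18.8 with HDM, a change of -0.41 (SE 0.06). Milr1, also called allergin, was at 79.2 and 86.0 untreated and 66.6 and 66.7 with HDM, a change of -0.31 (SE 0.04). Gp49a, Lilrb4, Fcgr1, Fcrl1, Sirpa and Fcer1g completed the lower members, and Gp49a and Lilrb4 are near copies whose reads may be split. The 2 higher members were Trem1, an amplifier of inflammatory signals, which rose by 0.98 (SE 0.22) from 0.692 and 0.554 to 1.32 and 1.32, and Havcr2, which encodes TIM-3 and rose by 0.41 (SE 0.08). In the scavenger and lectin list 4 of 24 were higher (16.7%, against 9.22% of all genes) and 6 lower (25%, against 10.1%). Stab1, a scavenger receptor, was at 25.5 and 25.7 untreated and 40.9 and 37.5 with HDM, a rise of 0.61 (SE 0.05), while Lrp1 and Cd68 changed by -0.26 and -0.23 (SE 0.03 each). With untreated library 1 left out, 2 lectin or scavenger genes were called higher. Of the called macrophage markers Cd68 fell and Emr1 rose. Emr1 was at 155.8 and 151.5 untreated and 170.9 and 162.1 with HDM, a rise of 0.12 (SE 0.03). The macrophage marker sum, most of it Cd68, was 640 in both untreated libraries and 577 to 585 with HDM.

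Several surface genes of adhesion, guidance and ion transport were lower with HDM. Sema6d, a transmembrane semaphorin, was at 27.1 and 26.2 untreated and 12.6 and 12.5 with HDM. The values of the pairs lay close together and far apart from each other (log2 fold change -1.08, SE 0.06, limma adjusted p = 1.3e-12). Cd44, the hyaluronan receptor, was at 753 and 751 untreated and 520.4 and 513 with HDM, a change of -0.54 (SE 0.03). Kcnj2, an inward-rectifier potassium channel, was at 55.7 and 53.9 untreated and 31.5 and 29.9 with HDM, a change of -0.83 (SE 0.05). In the guidance list 1 of 25 was higher (4%) and 5 lower (20%, against 10.1% of all genes), among them Sema4d, a ligand of plexins on lymphocytes, at -0.47 (SE 0.03). In the adhesion list 5 of 37 were higher (13.5%) and 7 lower (18.9%; 11 with the deposited scaling alone), and the poliovirus receptor gene Pvr fell by 0.39 on the log2 scale (SE 0.04). Of the ion channels 7 of 61 were higher (11.5%) and 9 lower (14.8%), near the 9.22% and 10.1% of all genes. The counts for channels were 3 higher without HDM 1 and 5 lower without HDM 2. Kcnn4 and Trpv2, channels that govern calcium entry, changed by -0.33 and -0.31 (SE 0.03 each). Of 15 integrins 2 rose and 2 fell (13.3% each), near the shares of all genes, with Itga4 at -0.27 (SE 0.03) and Itga5, the fibronectin receptor chain, at -0.23 (SE 0.04). With single libraries left out 1 to 3 integrins were called in each direction, the lowest counts being those without HDM 1 (higher) and without HDM 2 (lower). The deposited scaling alone called 6 integrins and 5 tetraspanins lower. Of 17 tetraspanins 2 rose (11.8%) and 3 fell (17.6%), 3 rose without untreated library 1 and 1 without untreated library 2, HDM 1, HDM 2, Grass 1 or Grass 2, and Cd53 changed by -0.36 (SE 0.03), Cd9 by -0.25 (SE 0.03) and Cd63 by -0.20 (SE 0.03).

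Actin genes and some of their transcriptional regulators fell with HDM. Serum response factor, Srf, binds CArG boxes in promoters of cytoskeletal genes and is switched on by the actin-sensing coactivator Mkl1. Of the 32 tested members of the list, 12 fell (37.5%, against 10.1%) and 2 rose (6.25%), with a median log2 fold change of -0.13 against -0.03 over all tested genes. Leaving out any 1 library gave 10 to 14 lower members. Lower calls became more frequent with level over all tested genes. They made up 3.56% in the quartile of lowest values, 10.9% in the third and 19.6% in the highest. Actb and Actg1 lie in the highest quartile, and Srf, Vcl and Zyx in the third. The part of level in this and other lists of lower genes was not tested. The promoters of 3 members that fell and hold a CArG box follow, each from 250 bases before to 50 bases after the start, with the boxes in capitals. They were taken from RefSeq for GRCm38.p6: Srf at chr17:46556113-46556412 on the minus strand, Actg1 at chr11:120348446-120348745 on the minus strand and Vcl at chr14:20929148-20929447 on the plus strand.
Srf: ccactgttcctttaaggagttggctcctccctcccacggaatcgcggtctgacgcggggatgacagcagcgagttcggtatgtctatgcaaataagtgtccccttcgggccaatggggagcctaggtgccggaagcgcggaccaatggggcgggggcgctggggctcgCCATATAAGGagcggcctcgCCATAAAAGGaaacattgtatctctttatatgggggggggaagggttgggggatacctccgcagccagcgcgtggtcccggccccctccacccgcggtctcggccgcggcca
Actg1: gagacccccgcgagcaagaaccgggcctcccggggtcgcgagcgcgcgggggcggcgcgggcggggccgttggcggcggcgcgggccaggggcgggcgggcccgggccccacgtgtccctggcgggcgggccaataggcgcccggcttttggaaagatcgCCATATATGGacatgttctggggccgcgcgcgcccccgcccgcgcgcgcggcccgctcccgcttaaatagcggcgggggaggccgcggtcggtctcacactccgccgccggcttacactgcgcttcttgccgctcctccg
Vcl: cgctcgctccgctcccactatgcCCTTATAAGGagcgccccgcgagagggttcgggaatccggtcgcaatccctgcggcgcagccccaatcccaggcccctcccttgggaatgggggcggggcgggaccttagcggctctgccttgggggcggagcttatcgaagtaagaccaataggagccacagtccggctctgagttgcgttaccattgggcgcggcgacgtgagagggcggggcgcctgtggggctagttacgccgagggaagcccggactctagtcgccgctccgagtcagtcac

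The Srf promoter holds 2 CArG boxes, whose first bases lie 82 and 62 bases before the start, that of Actg1 holds 1 at 90 bases and that of Vcl 1 at 227 bases. A CArG box stood in the promoters of 4 of the 11 members that fell and had a promoter in the RefSeq table (36.4%), the fourth being Lima1. It stood in 1.36% of the promoters of 9201 tested genes and in 1.81% of all 27025 genes in the table. The list was drawn up from serum response factor targets, many of them known for CArG boxes, so a share above that of all genes follows from the choice of genes. Among its members that did not fall, 1 of 16 with a promoter held a box (6.25%). These are matches of letters on either strand and say nothing of binding in these cells.

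Srf was at 80.0 and 78.1 in the untreated libraries and 57 and 56.8 with HDM, a change of -0.47 (SE 0.04, limma adjusted p = 2.4e-10). Actg1, cytoplasmic gamma actin, was at 2157 and 2315 untreated and 1515 and 1536 with HDM, a change of -0.55 (SE 0.03). Vcl, which encodes vinculin of focal adhesions, was at 74.5 and 72.7 untreated and 54.1 and 54.7 with HDM, a change of -0.44 (SE 0.04). The HDM and untreated libraries did not overlap in any of the 3, which was a condition for naming Actg1. Actb, cytoplasmic beta actin and a common reference gene, was at 5060 and 5376 untreated and 3845 and 3955 with HDM, a change of -0.42 (SE 0.03). Zyx, which encodes the focal adhesion protein zyxin, was at 73.7 and 78.3 untreated and 52.8 and 49.3 with HDM, a change of -0.57 (SE 0.04). Smaller falls were those of Tpm4 at -0.30 (SE 0.05), Flna at -0.25 (SE 0.02), Mkl1 at -0.26 (SE 0.03) and Lima1 at -0.22 (SE 0.05). The YAP-related gene Wwtr1 was at -0.41 (SE 0.10) and lost its call without untreated library 2 or HDM 1. Of the 2 members that rose, Filip1l, a filamin-binding protein, did so by 0.73 (SE 0.09). For scale, the glycolytic gene Gapdh was at 4393 and 4459 untreated and 4049 and 4026 with HDM, a change of -0.13 (SE 0.02).

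**Figure D3:**
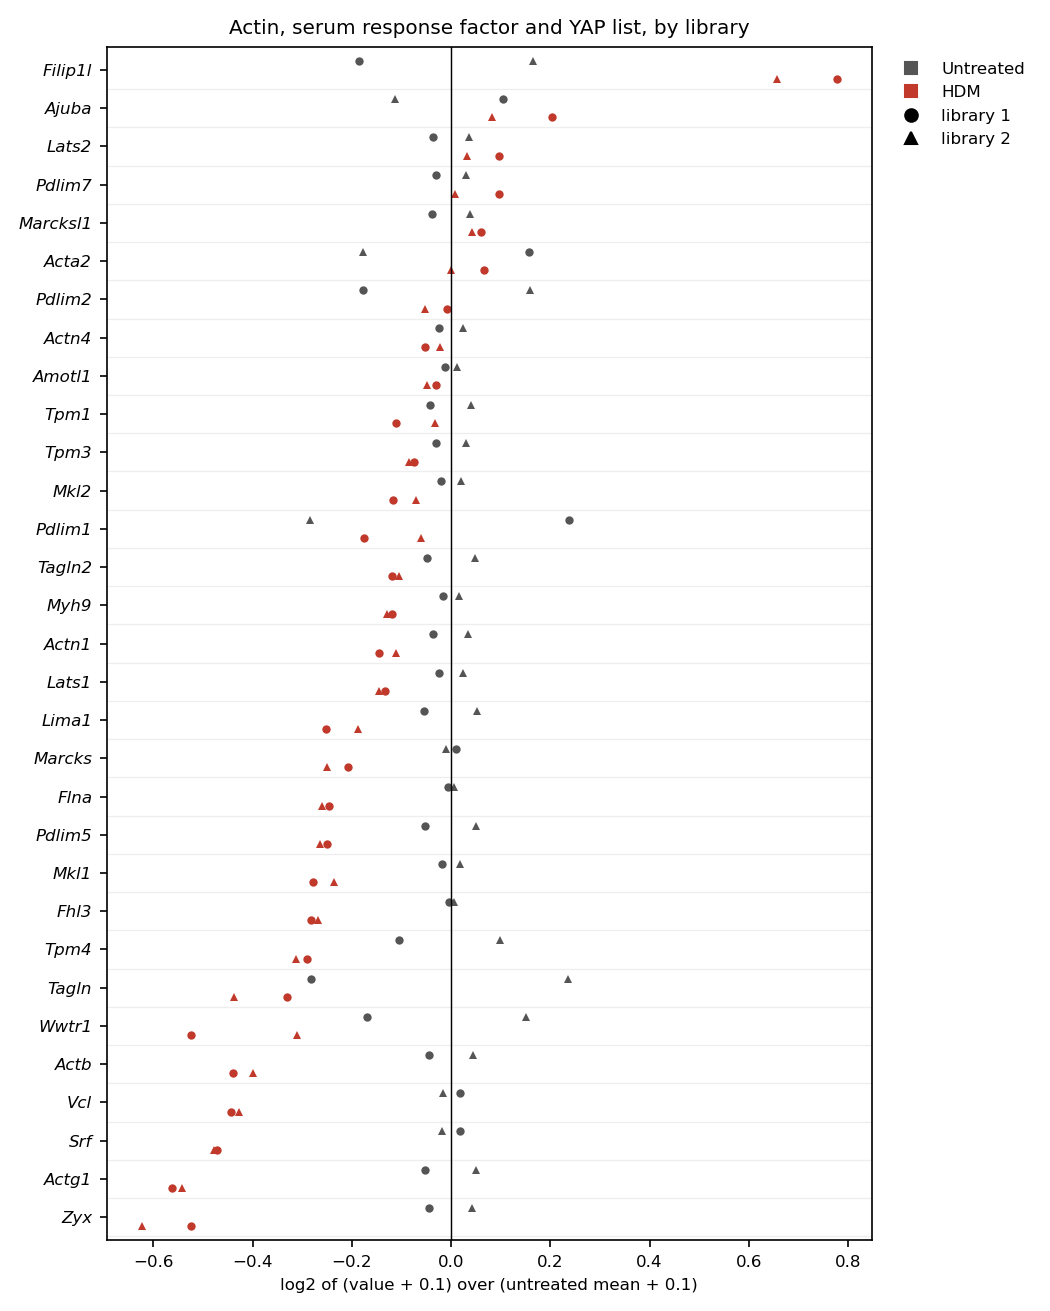
Log2 of each library's value plus 0.1 over the untreated mean plus 0.1, for 31 of the 32 tested members of the actin, serum response factor and YAP list. Circles are library 1 and triangles library 2; both HDM libraries lie below both untreated ones for the 12 members called lower, and Filip1l stands alone at the top.

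Regulators of small GTPases, which control actin and adhesion, changed in both directions. Of 120 tested, 18 were higher (15%, against 9.22% of all genes) and 24 lower (20%, against 10.1%), and DESeq2 called 11 higher. Arhgef7, an exchange factor at focal complexes, was at 415 and 445 untreated and 269 and 281 with HDM, a change of -0.64 (SE 0.03, limma adjusted p = 8.3e-14). Arhgap25, a Rac inhibitor of phagocytes, was at 117 and 129.8 untreated and 70.5 and 72.4 with HDM, a change of -0.79 (SE 0.04). Rasgrp3, a Ras exchange factor, was at 119 and 125 untreated and 79.9 and 82.3 with HDM, a change of -0.59 (SE 0.04). The groups lay apart in all 3, which was a condition for naming these genes. Rgs1 and Rgs2, which shorten signalling from G protein-coupled receptors, changed by -0.55 (SE 0.06) and -0.57 (SE 0.04). Rnd1, a small GTPase that disassembles actin fibres, rose by 0.65 (SE 0.10), from 6.23 and 6.94 to 10.2 and 10.5.

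Genes of fatty acid handling were called in both directions, where all tested genes had 9.22% higher and 10.1% lower. Of 55 genes of fatty acid, glycerolipid and lipid droplet metabolism 12 were higher (21.8%) and 4 lower (7.27%; 9 with the deposited scaling alone). DESeq2 called 8 higher, and upper-quartile scaling alone 20. Of 41 genes of fatty acid oxidation 6 were higher (14.6%) and 0 lower. With the deposited scaling alone limma called 2 oxidation genes lower (3 with p under 0.05 before adjustment), while edgeR called 2 and DESeq2 1. The count of higher oxidation genes was 3 without HDM 1 and 3 with DESeq2. Cpt1a, which admits long-chain fatty acids to mitochondria, was at 37.7 and 37.4 untreated and 50.6 and 51.3 with HDM, a rise of 0.44 (SE 0.04, limma adjusted p = 9.3e-09). Lpin1, a phosphatidate phosphatase of glycerolipid synthesis, was at 52.6 and 47.3 untreated and 66.1 and 67.7 with HDM, a rise of 0.42 (SE 0.06). Genes of fatty acid synthesis rose by less, with Fasn at 0.14 (SE 0.03), Acaca at 0.14 (SE 0.03), Elovl6 at 0.18 (SE 0.04) and Scd2 at 0.19 (SE 0.04). Among the lower members, Lpl, lipoprotein lipase, was at 2721 and 2629 untreated and 2030.4 and 2006 with HDM, a change of -0.41 (SE 0.02). Abhd5, the coactivator of triglyceride lipase, changed by -0.33 (SE 0.04), from 98.6 and 106 to 80.8 and 81.6.

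Of 37 sphingolipid genes 9 were lower (24.3%) and 1 higher (2.7%; 7 with upper-quartile scaling alone), and 4 were lower without HDM 2. Over all tested genes 10.1% were lower and 9.22% higher. The lower sphingolipid genes included the lysosomal hydrolases Gla and Hexa, which break down glycosphingolipids. Gla was at 54.4 and 53.8 untreated and 43.7 and 45.4 with HDM, a change of -0.28 (SE 0.04). Hexa changed by -0.19 (SE 0.03). Of 70 glycosyltransferases and sulfotransferases 15 were lower (21.4%) and 3 higher (4.29%; 11 with upper-quartile scaling alone), and 9 were lower without HDM 2. Chst11, which sulfates chondroitin, was at 63.4 and 69.6 untreated and 46.0 and 47.3 with HDM, a change of -0.51 (SE 0.04). B4galt1 and B4galt5, which add galactose to glycans, changed by -0.28 (SE 0.04) and -0.26 (SE 0.03), and Ndst1, of heparan sulfate synthesis, by -0.27 (SE 0.03). Gcnt1, which branches O-glycans, went the other way, at 167 and 174 untreated and 206 and 200 with HDM (log2 fold change 0.25, SE 0.03).

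Prostanoid synthesis genes were divided. Ptgs1, the constitutive cyclooxygenase, was at 119 and 111 untreated and 174 and 174 with HDM, a rise of 0.59 (SE 0.03, limma adjusted p = 8e-13). It was the single higher member among 27 eicosanoid genes (3.7%, against 9.22% of all genes), of which 4 were lower (14.8%, against 10.1%). Pla2g5 and Pla2g4a, phospholipases that release arachidonic acid, changed by -0.44 (SE 0.07) and -0.16 (SE 0.03). Tbxas1, thromboxane synthase, changed by -0.51 (SE 0.15) and lost its call without HDM 1, HDM 2 or untreated library 2. The eicosanoid count of lower members was 1 without HDM 2 and 1 with DESeq2. Ptgs2, the inducible cyclooxygenase, was at 102 and 109 untreated and 94.5 and 94.4 with HDM and was not called under all scalings.

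Few genes of central carbon metabolism were called. Of 33 genes of pyruvate and citric acid metabolism the one called was Idh1, the cytosolic isocitrate dehydrogenase, which rose by 0.13 (SE 0.04) and lost its call without untreated library 1 or HDM 2. Lower members numbered 5 of the 33 with the deposited scaling alone. Of 49 genes of the pentose phosphate pathway and nucleotide synthesis 6 were higher (12.2%) and 1 lower (2.04%), and 2 were higher without HDM 2. The shares over all tested genes were 9.22% higher and 10.1% lower. Lower members numbered 5 with the deposited scaling alone, and with the upper quartile alone 20 were higher. Tk1, thymidine kinase, was at 47.3 and 48.9 untreated and 66.1 and 63.9 with HDM, a rise of 0.43 (SE 0.04). The purine salvage gene Pnp fell by 0.23 on the log2 scale (SE 0.04). Mat2a, which makes S-adenosylmethionine, changed by -0.26 (SE 0.03), and Nampt, of NAD salvage, by -0.20 (SE 0.03). Each was the 1 lower member of its list. Of 42 serine, one-carbon and amino acid genes 5 were higher (11.9%), among them Glul by 0.23 (SE 0.03), and 1 lower (2.38%; 5 with the deposited scaling alone). Of 35 NAD and tryptophan genes 3 were higher (8.57%) and 1 lower (2.86%), and DESeq2 called 0 higher. In the glucuronidation genes Ugt1a6a and Ugt1a6b, which share most of their transcript, the sum was 19.7 and 21.5 untreated and 38.6 and 39.0 with HDM, 1.89-fold higher. Ugt1a7c, of the same locus, rose by 0.48 (SE 0.04).

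Among transcription factors and their partners, Mef2c, Mef2d and the class IIa histone deacetylases Hdac5 and Hdac9, which bind MEF2 proteins, fell, while Hdac7 of that class rose. Mef2c was at 309 and 308 untreated and 242 and 243 with HDM, a change of -0.35 (SE 0.03, limma adjusted p = 1.4e-09). Mef2d was at 231 and 230.5 untreated and 175 and 179 with HDM, a change of -0.38 (SE 0.03). The values were nearly the same within each pair and did not overlap between groups, and lack of overlap was a condition for naming both genes. Hdac9 was at 81.5 and 86.5 untreated and 51.4 and 50.9 with HDM, a change of -0.71 (SE 0.04), and Hdac5 changed by -0.46 (SE 0.04), from 89.8 and 88.5 to 65.6 and 63.6. Hdac7 rose by 0.21. Irf8, a factor required for the development of some dendritic cells and a marker used above, was at 57.7 and 62.6 untreated and 42.0 and 41.2 with HDM, a change of -0.53 (SE 0.04). Of the 13 tested dendritic and myeloid markers, 2 were called lower, Irf8 and Ptprc, the latter at -0.27 (SE 0.03). In the other direction 1 was called, Cd40, which rose by 0.38 (SE 0.13), and the rest, among them Spi1 and Csf1r, were not called. Over all tested genes 9.22% were higher and 10.1% lower. The repressor Bcl6 changed by -0.37 (SE 0.04), Zeb2 by -0.37 (SE 0.04), and the homeobox factors Hlx and Hhex by -0.37 (SE 0.05) and -0.31 (SE 0.04). These falls do not stand for their lists. The list with Mef2c, Mef2d, Bcl6 and Prdm1 had 10 of 66 members higher (15.2%) and 5 lower (7.58%). With the deposited scaling alone 11 of them were lower, and DESeq2 called 5 higher. Of 34 homeobox, POU and ZEB genes 3 were higher (8.82%) and 4 lower (11.8%). Prdm1, the BLIMP-1 repressor, rose by 0.80 (SE 0.19), from 0.951 and 1.11 to 1.89 and 1.85. Lef1, of the Wnt pathway, changed by -1.06 (SE 0.29) at low values and lost its call without untreated library 2 or HDM 2.

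Of 38 basic leucine zipper genes 9 were higher (23.7%) and 4 lower (10.5%; 8 with the deposited scaling alone), and 3 were higher without HDM 1. All tested genes had 9.22% higher and 10.1% lower. Cebpa, a myeloid factor, rose by 0.20 (SE 0.04), and the small Maf protein Mafk changed by -0.43 (SE 0.04). Of 39 basic helix-loop-helix genes 8 were lower (20.5%) and 3 higher (7.69%; 9 with upper-quartile scaling alone), and 3 were lower without HDM 1 and 5 without untreated library 1. The higher ones were Ahrr, by 2.82 (SE 0.14), the aryl hydrocarbon receptor gene Ahr, by 0.43 (SE 0.11), and Tfap4, by 0.15 (SE 0.04). Hif1a, the hypoxia-inducible factor, was at 331 and 356 untreated and 293 and 293 with HDM, a change of -0.23 (SE 0.03). Of the nuclear receptor list, Rarg, a retinoic acid receptor, was at 9.14 and 10.8 untreated and 15.2 and 13.8 with HDM, a rise of 0.54 (SE 0.08). The coactivator Ncoa3 fell by 0.27 on the log2 scale (SE 0.03). The other rises in that list were small or at low values, and its count of 9 was 3 without HDM 1, 3 without HDM 2 and 5 without untreated library 1.

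Numbered zinc finger genes, most of which encode KRAB repressors with few known targets, were called higher 49 times and lower 8 times among 316 tested (15.5% and 2.53%). Lower members numbered 19 with the deposited scaling alone, and with the upper quartile alone 97 were higher. The shares over all tested genes were 9.22% and 10.1%. The median change of zinc finger genes was 0.06 against -0.03 over all tested genes. The count of higher members was 21 without HDM 1, 26 without HDM 2, 29 without untreated library 2 and 14 with DESeq2, and that of lower members was 4 without HDM 1, 4 without HDM 2 and 5 without untreated library 1. Level moved with this result. In the quartile of tested genes with the lowest values the median log2 change was 0.04, and in the quartile with the highest it was -0.07. Of the zinc finger genes 145 were in the lowest quartile and 15 in the highest. Within the second and the third quartile 20.7% and 22.2% of zinc finger genes were higher, against 13.2% and 9.78% of all genes there. In the lowest it was 10.3% against 8.24%, and in the highest 6.67% against 5.62%. The part of level in the result was not tested further.

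Notch pathway genes were mixed. Notch1 was at 11.6 and 10.3 untreated and 18.2 and 17.7 with HDM, a rise of 0.71 (SE 0.08, limma adjusted p = 2.8e-07). Numb, an inhibitor of Notch, was at 125 and 135 untreated and 82.5 and 87.0 with HDM, a change of -0.61 (SE 0.04). Both genes had groups that did not overlap, which was a condition for naming them. Rbpj, the DNA-binding partner of Notch, changed by -0.19 (SE 0.03), and the corepressor Tle3 by -0.39 (SE 0.04). Of 32 genes of the Wnt and Notch list 6 were higher and 6 lower (18.8% each, against 9.22% and 10.1% of all genes). Without HDM 1, 2 were higher.

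Of 44 complement, coagulation, plasminogen and serpin genes 10 were lower (22.7%, against 10.1% of all genes) and 3 higher (6.82%, against 9.22%). DESeq2 called 6 lower, and 6 were higher without untreated library 1. Plaur, the receptor that holds urokinase at the cell surface, was at 90.4 and 92.7 untreated and 61.9 and 60.1 with HDM, a change of -0.58 (SE 0.04). It fell beside its ligand Plau, given above. Serpinb6b and Serpinb9, intracellular protease inhibitors, changed by -0.62 (SE 0.09) and -0.40 (SE 0.07). Serpinb8, of the same family, rose by 0.91 (SE 0.17), from 1.5 and 1.81 to 3.21 and 3.14. Of 28 growth factors and ligands 4 rose (14.3%) and 6 fell (21.4%), and 2 were higher without HDM 2, 2 with DESeq2 and 6 without untreated library 2. Pdgfb, a platelet-derived growth factor chain, was at 64.8 and 67.8 untreated and 45.5 and 44.7 with HDM, a change of -0.55 (SE 0.04). Tnfsf14, which encodes LIGHT, rose by 0.80 (SE 0.15), from 1.87 and 1.63 to 2.95 and 3.29.

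To ask which changes set HDM apart from the other extracts, HDM was also compared with Grass and with Cat in the same fit. These comparisons share the HDM libraries. Against Grass 181 genes were higher (1.58%) and 71 lower (0.62%), and against Cat 337 were higher (2.94%) and 328 lower (2.86%). In both comparisons at once 106 genes were higher (0.925%) and 9 lower (0.0786%). Of the 106, 79 were also higher than untreated, 26 were not called against untreated and 1 was lower. Of the 105 genes raised at least 1.5-fold over untreated, 21 were higher than with both other extracts and 64 were called against neither. Of the 105 lowered as much, 3 were lower than with both and 54 were called against neither.

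Ahrr, which encodes a repressor acting on the aryl hydrocarbon receptor, was at 12 and 12.1 with HDM, 1.64 and 1.60 untreated, 2.19 and 1.79 with Grass and 2.21 and 2.01 with Cat. The HDM libraries stood alone, higher than Grass by 2.55 and than Cat by 2.46 (SE 0.14 each). Spint1 was at 13.4 and 14 with Grass and 11.7 and 12.9 with Cat, close to its untreated values and below the HDM values given above. Its log2 difference from Grass was 0.93 and from Cat 1.09 (SE 0.07 each). Camkmt, a calmodulin methyltransferase, was at 13.3 and 12.4 with HDM, 6.86 and 7.59 untreated, 6.50 and 7.01 with Grass and 6.28 and 7.89 with Cat. Fam84b was at 161 and 159 with HDM, 92.9 and 100.4 untreated, 90.9 and 90.7 with Grass and 91.0 and 93.2 with Cat. Ptgs1 was at 117 and 116 with Grass and 115 and 114 with Cat, so the HDM libraries at 174 were the highest of the 8. Smox, spermine oxidase, was at 162 and 153 with HDM, 104 and 111 untreated, 99.0 and 104 with Grass and 98.2 and 100 with Cat. In each of these genes the other 6 libraries lay below both HDM libraries. The genes are shown here for being higher with HDM than in the other groups, so this follows from the choice of genes. Gpr141, an orphan receptor, was at 15.5 and 16.9 with HDM, 9.71 and 11.4 untreated, 10.1 and 10.6 with Grass and 10.4 and 9.44 with Cat. Ncf4, a subunit of the phagocyte oxidase, was at 62.7 and 63.3 with HDM and between 38.4 and 43.9 in the other 6 libraries. Il12rb1 had a log2 difference of 1.12 from Grass and 0.82 from Cat (SE 0.15 each), and Dfna5 of 0.80 and 1.19 (SE 0.08 each).

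For some genes the Grass libraries lay between the untreated and the HDM libraries. Lpar6 was at 16.2 and 16.1 with Grass and 11.9 and 12.6 with Cat, and HDM was higher than Grass by 0.66 and than Cat by 1.05 (SE 0.07 each). Bmf was at 17.1 and 14.8 with Grass and 10.1 and 10.3 with Cat, with log2 differences of 0.37 and 1.01 (SE 0.08 each). For other genes no difference from Grass was called. Il4ra was at 15 and 15 with Grass, and the log2 difference of HDM from Grass was 0.02 (SE 0.08). The actin genes Actb and Srf had differences from Grass of 0.00 (SE 0.03) and 0.00 (SE 0.04), and from Cat of -0.20 (SE 0.03) and -0.31 (SE 0.04). The 9 genes lower with HDM than with both other extracts were Cyth4, Fam102a, Gpr176, Nav2, Pdxk, Ppap2b, Sema4d, Tecpr1 and Tnfrsf12a. All 9 were also lower than untreated. Ppap2b, a lipid phosphate phosphatase that degrades lysophosphatidic acid, was at 8.16 and 7.78 with HDM, 13.8 and 13 untreated, 9.91 and 10.2 with Grass and 12.6 and 13.5 with Cat.

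**Figure D4:**
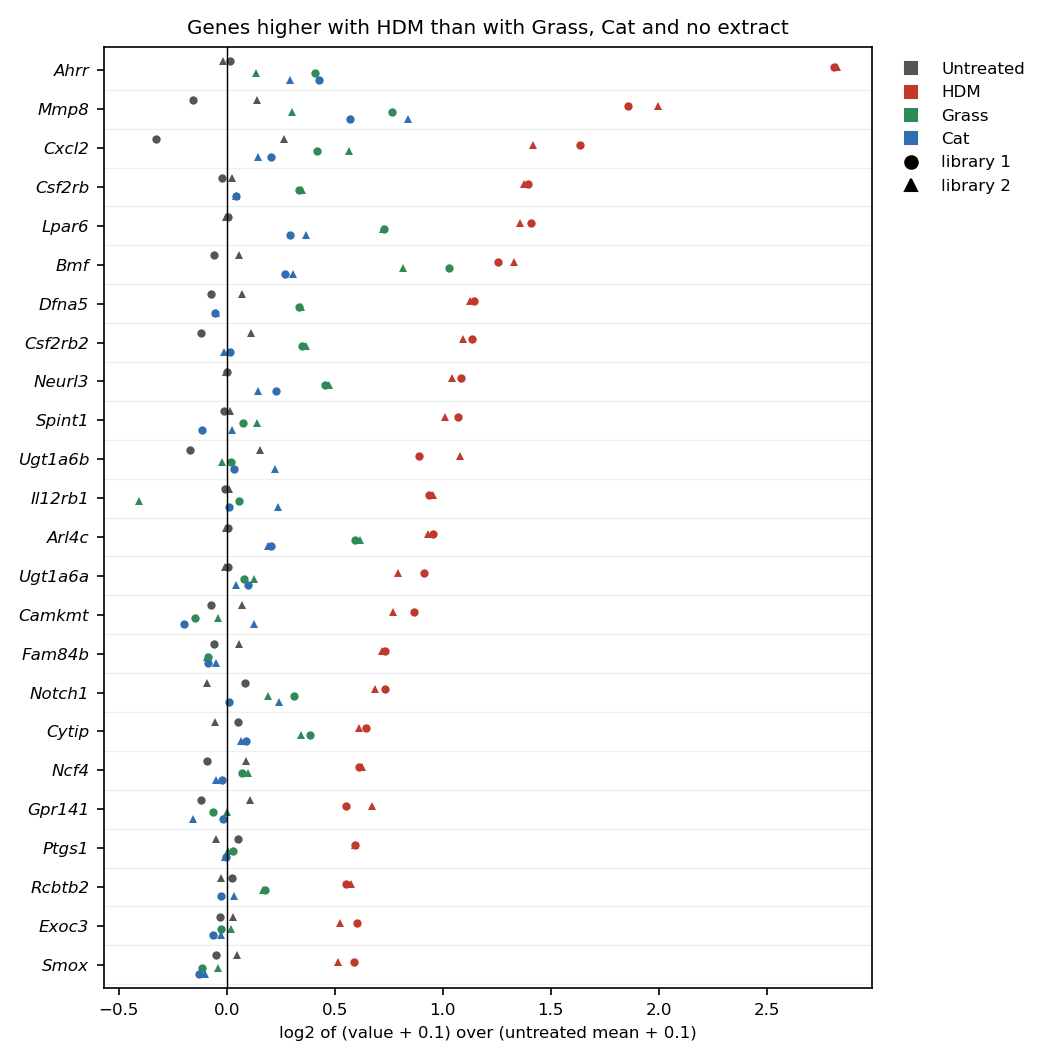
Log2 of each library's value plus 0.1 over the untreated mean plus 0.1, in all 8 libraries, for the 24 largest increases among genes higher with HDM than untreated, than Grass and than Cat. Circles are library 1 and triangles library 2; the red HDM points lie to the right of all others, while Grass lies between untreated and HDM for Lpar6, Bmf and Arl4c.

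The aryl hydrocarbon receptor binds DNA at sites with the core GCGTG. The Ahrr promoter, shown for the gene with the largest difference among those higher than with both other extracts, holds 3 such cores, in capitals, at chr13:74292282-74292581 on the minus strand of GRCm38.p6, from RefSeq.
Ahrr: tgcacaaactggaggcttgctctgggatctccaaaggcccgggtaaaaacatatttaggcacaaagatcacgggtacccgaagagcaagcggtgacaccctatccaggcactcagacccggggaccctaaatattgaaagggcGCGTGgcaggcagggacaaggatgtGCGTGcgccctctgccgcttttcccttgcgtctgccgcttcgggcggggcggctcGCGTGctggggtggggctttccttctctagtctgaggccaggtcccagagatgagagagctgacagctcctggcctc

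The core GCGTG, on either strand, was found in the promoters of 41 of 85 genes higher with HDM than with both other extracts (48.2%). It was found in 57% of the promoters of all tested genes and in 35.2% of all genes in the table, so its share among the 85 was below that of tested genes.

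The authors' deposited table for HDM lists 115 genes higher and 97 lower, with a smallest fold of 1.5 in size. Of these, 189 were called in the same direction here, and 17 have an FDR of at least 0.05 in the authors' deposited table.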

How the data were processed

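Per the labels' protocols, mRNA was enriched from 8 DC2.4 samples, 2 per group, and made into strand-marked libraries. Tools named in the submitters' processing notes are RSEM 1.2.15, Bowtie2 2.1.0 and edgeR, and the build is mm9; the annotation and strand setting are not given in the sources used here, so overlapping and antisense genes may share reads. The authors deposited a table of all genes under the name of counts; what it holds is a signal that the authors scaled for depth. In each library every value was a whole multiple of 1 step (tolerance 1e-06, 100% of values), which gave 31.9 to 43.3 M reads. The authors' deposited table for HDM adds a signed fold, kept here as a score, and p-values. Rows whose symbol had become a date (27, of which 14 were tested) or was repeated (4) go unnamed.

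Log2 of the value plus 0.1 was fitted with limma 3.58.1 (R 4.3.3; trend, robust) over the 4 groups, with Benjamini-Hochberg adjustment over 11455 genes, and a threshold of 0.05. All adjusted p-values are limma's. Called genes passed in the same direction under the deposited scaling, DESeq2 1.42.0 size factors, TMM and upper-quartile factors. edgeR 4.0.16 (1045 genes higher, 2515 lower) and DESeq2 (549 and 1827) ran on recovered reads as alternatives, beside other pseudocounts (0.5 and 1), filters, a replicate block and leaving out each library. The fit was also run on simulated counts with few changed genes and the same dispersion for all genes. These data have far more called genes, so no conclusion is drawn from that run. The members and lists were chosen with earlier results of these data known; lists match symbols by pattern, so a few members fit by name only. Named genes were the 15 largest called changes in each direction with a mean of at least 1 and not already described from these data, up to 3 genes per list by p, and Ahrr, Csf2rb, Csf2rb2, Egr1, Gapdh and Actb. All other genes named were chosen after their values were seen. Promoters (RefSeq, GRCm38.p6, not the files' build) were matched by symbol or synonym. Some genes of the lists are counted but not reported here by name. Grass and Cat tables of the authors were not used here.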

Additional observations from a re-analysis of the deposited data

How the results depend on the processing

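With the deposited scaling, all 8 libraries and a pseudocount of 0.1, HDM against untreated gave 1056 genes higher and 2513 lower. Upper-quartile scaling turned this to 2169 and 1156 and DESeq2 on recovered reads called 549 higher. At 1.5-fold, 105 were higher and 113 lower. The higher count was 59 with a pseudocount of 0.5, 41 with 1 and 69 with DESeq2, and the lower count was 70 with a pseudocount of 1. Leaving out 1 library at a time gave 613 (without HDM 1) to 1017 higher and 1660 (without HDM 2) to 2620 lower, and 78 to 109 higher and 79 to 165 lower at 1.5-fold. HDM against Grass gave 194 higher and 71 lower, which were 129 and 34 with no filter beyond 1 read and 27 lower with DESeq2. With a library left out they ranged from 88 (without HDM 1) to 390 (without untreated library 2) higher and from 10 (without Grass 1) to 176 (without untreated library 2) lower. HDM against Cat gave 337 higher and 552 lower, which were 328 lower with upper-quartile scaling and 204 higher and 333 lower with DESeq2. With a library left out they ranged from 164 (without HDM 1) to 483 (without untreated library 2) higher and from 256 (without Cat 1) to 796 (without untreated library 1) lower. The cause was not tested. Same-numbered libraries did not deviate together (correlations of -0.08 to 0.13), so the numbers do not pair them; with the replicate number as a block, 1031 genes were higher and 2458 lower, and 104 and 107 at 1.5-fold. Of the 142 genes named by rule none reversed under any alternative and 12 lost their call under at least 1, among them Amd2, Atp6v0c-ps2, Hist1h2ap, Hist1h2bg, Idh1, Nudt13, Nudt18, Skil, Smad1, Snhg1 and Snhg5. With 2 libraries a group, p-values rest on a spread shared across the 4 groups.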

Other observations

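Further lists add biology not described above, beside shares of 9.22% higher and 10.1% lower among all tested genes. Of 162 genes of Rab proteins, sorting nexins and SNAREs, which direct vesicles, 21 were lower (13%) and 9 higher (5.56%). Lower members numbered 45 with the deposited scaling alone, and with the upper quartile alone 28 were higher. Stx7, a syntaxin of late endosomes, was at 141 and 144 untreated and 102 and 101 with HDM, a change of -0.49 (SE 0.03). The count of lower members was 11 without HDM 2, 13 without HDM 1, 13 without untreated library 2 and 13 with DESeq2. Rab27a, which moves secretory lysosomes, rose by 0.51 on the log2 scale (SE 0.08); of the higher members DESeq2 called 3, and 5 were higher without HDM 2. Of 59 autophagy genes 9 were higher (15.3%) and 2 lower (3.39%), and 3 were higher without HDM 1. Lower members numbered 10 with the deposited scaling alone, so the excess of higher members depends on the scaling. Atg16l1, which directs lipid attachment to Atg8 proteins, changed by -0.22 (SE 0.05), and Gabarap, one of those proteins, by -0.17 (SE 0.04).

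Of 142 chromatin genes 17 were higher (12%) and 9 lower (6.34%), and 10 were higher without HDM 1 or HDM 2 and 11 without untreated library 2; DESeq2 called 10 higher. Lower members numbered 33 with the deposited scaling alone, and with the upper quartile alone 38 were higher, so the balance turns with the scaling. Jmjd1c, a Jumonji-domain protein, was at 135 and 131 untreated and 95.2 and 94.5 with HDM, a change of -0.49 (SE 0.04). Of 237 ubiquitin ligase and deubiquitinase genes 20 were higher (8.44%) and 19 lower (8.02%), shares near those of all tested genes; 12 were lower without HDM 2, and DESeq2 called 12 higher. Lower members numbered 50 with the deposited scaling alone, and with the upper quartile alone 45 were higher. Trim25, an activator of RIG-I, changed by -0.43 (SE 0.03), from 447 and 493 to 352 and 347. Neat1, the long RNA that scaffolds paraspeckles, was at 316 and 293 untreated and 362 and 363 with HDM, a rise of 0.25 (SE 0.03). Inppl1 and Pik3cb, which act on phosphoinositides, changed by -0.27 (SE 0.03) and -0.31 (SE 0.04).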
